A study of Mus musculus with 11 samples.

Results

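The receptor phosphatase gene Ptprz1 was examined with the genes of its ligands pleiotrophin (Ptn) and midkine (Mdk) and of the cell surface proteins contactin 1 (Cntn1), neuronal cell adhesion molecule (Nrcam) and anaplastic lymphoma kinase (Alk). These 6 genes were matched by symbol among the 19629 genes of the deposited normalized table and by Ensembl ID in the full count table. They were chosen by gene name around Ptprz1 when the Het against WT results of the same libraries were already known, so their differences between the groups are given as a description, without a p-value. The study sequenced bulk RNA of the aortic arch at postnatal day 11, with 6 libraries from mice heterozygous for the G357W mutation of Tgfbr2 (Het, Tgfbr2-G357W/+) and 5 from littermates without it (WT, Tgfbr2-+/+). The mutant mice serve as a model for Loeys-Dietz syndrome type II, and Tgfbr2 is the gene of a TGF-beta receptor kinase. The labels list no treatment for either group, and they give neither the strain nor the sex of the mice. That the libraries come from separate mice is stated in the design.

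Ptprz1 encodes a receptor-type protein tyrosine phosphatase whose long extracellular part carries chondroitin sulfate chains. A secreted splice form of it, phosphacan, is a proteoglycan of the brain matrix. Pleiotrophin and midkine are related heparin-binding growth factors, and their binding to the chondroitin sulfate of the receptor is known to bring receptor molecules together and lower their phosphatase activity. Contactin 1 binds the carbonic anhydrase-like domain of the receptor, and Nrcam takes part in the same complexes on neurons. Alk is a receptor tyrosine kinase that has been linked to pleiotrophin and midkine signalling, and its direct ligands are encoded by Alkal1 and Alkal2. The system is best known from glia and neurons, and midkine has also been studied in neointima formation after arterial injury.

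Total counts per library were 13162449 to 18883711 in Het and 13113467 to 19327935 in WT. Smooth muscle markers were abundant, with 6 genes summing to 30424 to 41442 CPM (counts scaled to library size, with TMM factors) in Het and 33562 to 38068 CPM in WT. The 6 endothelial markers summed to 322 to 521 CPM in Het and 352 to 475 CPM in WT. As cell types the labels give VSMC and EC, smooth muscle of vessels and endothelium. Markers of other cells were present too, with sums of 34.2 to 107.5 CPM in Het and 31.4 to 94.2 CPM in WT for macrophages and 306.1 to 2007 CPM in Het and 749.3 to 2638 CPM in WT for brown fat. Of 6 smooth muscle markers tested, 1, Cnn1, fell (log2 fold change -0.51 ± 0.13, adjusted p = 0.0346 by edgeR), and the median of the list was -0.02. Of 6 brown fat markers tested, 1, Dio2, rose (1.15 ± 0.28, adjusted p = 0.0245 by edgeR), and the median was 0.04. No endothelial or macrophage marker passed. Of 2 skeletal muscle markers tested, Tnnt3 fell (-1.63 ± 0.23, adjusted p = 0.000649 by edgeR) and Acta1 did not pass (0.55 ± 0.39). Over all genes tested, 5.03 percent passed. Xist was at 58.4 to 78.6 CPM in Het 1, Het 2 and all WT libraries, while Het 3 to 6 had at most 0.735 CPM of Xist and 86.4 to 110.5 CPM of the Y-linked gene Ddx3y. No WT library was Y-positive, so in a comparison that includes Het 3 to 6 genotype and sex are partly confounded. Tgfbr2 was at 39.0 ± 8.22 CPM in Het (SD, n = 6) and 41.3 ± 4.29 CPM in WT (SD, n = 5), with a log2 fold change of -0.09 ± 0.13 (SE, edgeR adjusted p = 0.79). A gene count sums both alleles, so it does not check the genotype.

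All 6 genes are protein coding, and their positions are those of GENCODE M21 on GRCm38, counted from 1. Ptprz1 (ENSMUSG00000068748) lies on the plus strand of chromosome 6 from 22875502 to 23052916 and Ptn (ENSMUSG00000029838) on the minus strand of the same chromosome from 36714929 to 36810220. Mdk (ENSMUSG00000027239) spans 91929805 to 91932297 on the minus strand of chromosome 2. Cntn1 (ENSMUSG00000055022) lies at 92051165 to 92341967 on chromosome 15, Nrcam (ENSMUSG00000020598) at 44328885 to 44601964 on chromosome 12, both on the plus strand, and Alk (ENSMUSG00000055471) at 71868972 to 72604627 on the minus strand of chromosome 17. No annotated gene shares exon bases with any of the 6, which matters because the libraries do not mark strand. GENCODE lists 6 transcripts for Ptprz1, and the counts do not separate receptor forms from phosphacan.

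The promoter windows of Ptprz1 and Ptn are shown as those of the receptor gene and of a ligand gene that lie on the same chromosome. RefSeq (GRCm38.p6) gave windows of 250 bases before to 50 bases from the start site for 5 of the 6 genes, all but Mdk. Each is read on the strand of its gene, and capitals mark the GC box GGGCGG on either strand.
Ptprz1, chr6:22875252-22875551, plus strand: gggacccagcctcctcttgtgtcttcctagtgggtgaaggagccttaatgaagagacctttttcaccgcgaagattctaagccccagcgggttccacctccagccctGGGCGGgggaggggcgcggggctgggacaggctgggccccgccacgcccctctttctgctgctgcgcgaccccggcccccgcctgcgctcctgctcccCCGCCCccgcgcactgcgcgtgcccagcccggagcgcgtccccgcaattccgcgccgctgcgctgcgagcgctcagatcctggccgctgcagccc
Ptn, chr6:36810130-36810429, minus strand: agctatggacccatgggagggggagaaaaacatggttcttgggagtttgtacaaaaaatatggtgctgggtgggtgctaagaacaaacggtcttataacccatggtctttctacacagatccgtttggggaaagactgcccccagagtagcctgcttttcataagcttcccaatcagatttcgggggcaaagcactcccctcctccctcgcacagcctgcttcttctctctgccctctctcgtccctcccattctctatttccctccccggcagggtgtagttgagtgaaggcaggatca
The Ptprz1 window had 71.7 percent G and C, more than 92.6 percent of the 32851 windows of the table, while the Ptn window had 52.0 percent, close to the median of the table (52.7 percent). The Ptprz1 window held 2 GC boxes, both before the start site, and the Ptn window held none. A GC box was present in 35.7 percent of all windows. The Smad box CAGAC, present in 49.6 percent of all windows, and the AP-1 site TGANTCA, present in 7.81 percent, were on neither strand of either window. The Nrcam window held 2 GC boxes, the Alk window 1 and the 3 Cntn1 windows none, and none of these held CAGAC or TGANTCA. These matches and their absence describe the letters of these windows alone.

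Ptprz1 RNA was higher in every Het arch than in any WT arch. The receptor gene was at 96.7, 114.0, 89.3, 103.5, 111.5 and 93.5 CPM in Het 1 to 6, against 46.6, 42.4, 38.9, 56.0 and 41.6 CPM in WT 1 to 5. The groups did not overlap, and the lowest Het library, Het 3, was well above WT 4, the highest WT library. The means were 101.4 ± 9.97 CPM in Het (SD, n = 6) and 45.1 ± 6.68 CPM in WT (SD, n = 5), a log2 fold change of 1.17 ± 0.10 (SE) or 2.25-fold. The SD was 9.83 percent of the mean in Het and 14.8 percent in WT. In bulk RNA, more cells of a type and more RNA per cell cannot be told apart.

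Xist-positive and Y-positive Het libraries overlapped in Ptprz1. The 2 Xist-positive Het libraries had 96.7 and 114.0 CPM and the 4 Y-positive ones 89.3 to 111.5 CPM, and all lay above the Xist-positive WT libraries. With a sex score as a covariate, the log2 fold change was 1.22 ± 0.14 (SE). In the Xist-positive libraries alone, 2 Het against 5 WT, it was 1.23 ± 0.15. Column names of the deposited tables carry a number, 6 or 7, whose meaning the labels leave unstated. Among libraries with the number 6, Ptprz1 had 96.7 to 114.0 CPM in 4 Het libraries, against 38.9 CPM in the only WT library. Among those with the number 7, it had 89.3 and 93.5 CPM in Het and 41.6 to 56.0 CPM in 4 WT libraries.

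Midkine RNA went the other way. Mdk, the ligand gene with the higher level, was at 55.5, 43.4, 58.3, 43.9, 53.2 and 56.1 CPM in Het 1 to 6, against 102.1, 101.4, 122.5, 76.0 and 74.6 CPM in WT 1 to 5. Every Het library was below every WT library, and WT 4 and WT 5 were the WT libraries nearest to Het. The means were 51.7 ± 6.46 CPM in Het (SD, n = 6) and 95.3 ± 20.1 CPM in WT (SD, n = 5), with a log2 fold change of -0.88 ± 0.13 (SE). Using Xist-positive libraries alone gave -0.95 ± 0.21, and adding the sex score to the fit gave -0.95 ± 0.19. With the column-name number 6, 4 Het libraries had 43.4 to 55.5 CPM and the WT library 122.5 CPM. With the number 7, 2 Het libraries had 56.1 and 58.3 CPM and 4 WT libraries 74.6 to 102.1 CPM.

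Pleiotrophin RNA overlapped between the groups. Ptn was at 32.2, 19.5, 35.0, 17.8, 20.7 and 20.8 CPM in Het 1 to 6, against 14.8, 15.2, 19.1, 23.8 and 15.8 CPM in WT 1 to 5. Het 1 and Het 3 stood above all other libraries, and the other 4 Het libraries lay within the range of WT. The means were 24.4 ± 7.32 CPM in Het (SD, n = 6) and 17.8 ± 3.78 CPM in WT (SD, n = 5), with a log2 fold change of 0.45 ± 0.19 (SE). The sex score as a covariate gave 0.57 ± 0.26, and the value was 0.31 ± 0.22 without WT 1 and WT 2, the libraries that stood apart from the others on the first principal component. It was lowest among the fits that left out a single library, 0.32 ± 0.18, without Het 3.

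The 6 fibroblast markers differed in how they ranked the Het libraries. Dcn, Pdgfra, Lum and Pi16 were highest in Het 1 and Het 3, as was Ptn, while Col1a1 and Dpt were not. For Pi16 the lead was small, with 96.4 and 95.5 CPM in Het 1 and Het 3 and 93.7 CPM in Het 6. Dcn, which encodes the small proteoglycan decorin, was at 945.7, 573.3, 965.6, 528.7, 596.6 and 660.8 CPM in Het 1 to 6, against 671.1, 440.6, 793.2, 840.1 and 912.5 CPM in WT 1 to 5. Pdgfra, a receptor of platelet-derived growth factors, was at 45.0 and 46.4 CPM in Het 1 and Het 3 and 29.0 to 33.5 CPM in the other 4 Het libraries, against 25.7 to 40.3 CPM in WT. Col1a1, the most abundant of the list, was at 5751, 5983, 7195, 5959, 7418 and 11178 CPM in Het 1 to 6, against 9319, 6849, 4012, 3795 and 3850 CPM in WT 1 to 5, so it was lowest among Het in Het 1. Dpt, which encodes dermatopontin, was at 460.3 CPM in Het 1 and 565.8 CPM in Het 3 and at 396.1 to 484.4 CPM in the other Het libraries, against 493.4 to 580.2 CPM in WT. In WT, Ptn was highest in WT 4, as were Pdgfra and Lum, while Dcn was highest in WT 5. Pi16, Dpt and Col1a1 were highest in WT 1, where Ptn was lowest, at 14.8 CPM. Of the 6 fibroblast markers 0 rose and 1, Pi16, fell (log2 fold change -0.62 ± 0.10, adjusted p = 0.00194 by edgeR), and their summed level was 7263 to 12784 CPM in Het and 5769 to 10971 CPM in WT; most of it was Col1a1. The part of fibroblasts in the Ptn values was not tested.

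**Figure D1:**
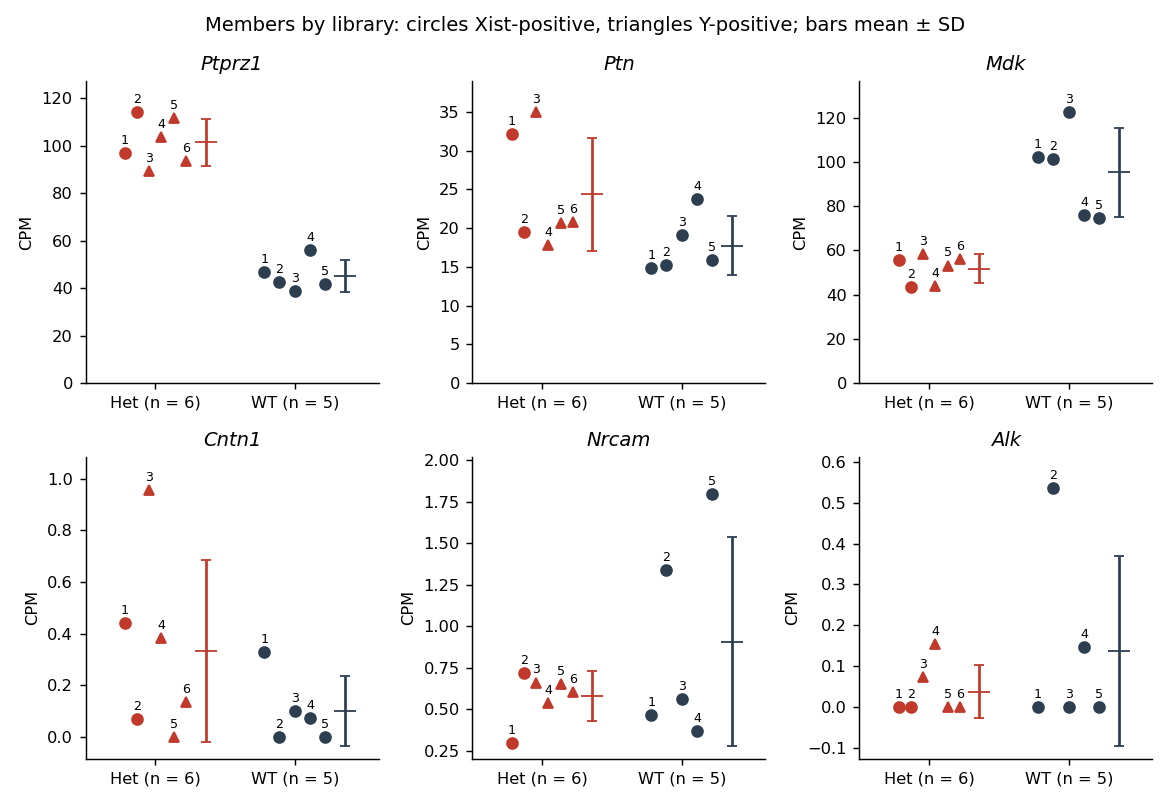
CPM of the 6 genes in each library, numbered by replicate, with Het left of WT; circles are Xist-positive and triangles Y-positive libraries, and bars show the mean and SD. Ptprz1 lies at 89.3 to 114.0 CPM in Het and 38.9 to 56.0 CPM in WT, Mdk at 43.4 to 58.3 CPM in Het and 74.6 to 122.5 CPM in WT, and the other 4 genes overlap between the groups.

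The partner genes Nrcam, Cntn1 and Alk had few counts, and of these only Nrcam had over 3 counts in every library. Nrcam, which encodes a neuronal adhesion molecule of the L1 family, had 4, 10, 9, 7, 12 and 9 counts in Het 1 to 6, against 7, 20, 11, 5 and 24 counts in WT 1 to 5. Summed over libraries this was 51 counts or 0.584 CPM in Het (exact Poisson 95 percent interval 0.435 to 0.768) and 67 counts or 0.876 CPM in WT (0.679 to 1.11). The high values came from WT 2 and WT 5 alone, and the other 3 WT libraries lay within the Het range of 0.296 to 0.721 CPM.

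Cntn1, which encodes a lipid-anchored adhesion molecule, had 6, 1, 13, 5, 0 and 2 counts in Het 1 to 6, against 5, 0, 2, 1 and 0 counts in WT 1 to 5. The sums were 27 counts or 0.309 CPM in Het (0.204 to 0.450) and 8 counts or 0.105 CPM in WT (0.0452 to 0.206). Het 3 held 13 of the 27 Het counts, and 3 Het libraries were within the WT range of 0 to 0.331 CPM. The intervals cover counting error only.

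Alk, the receptor tyrosine kinase, had 0, 0, 1, 2, 0 and 0 counts in Het 1 to 6, against 0, 8, 0, 2 and 0 counts in WT 1 to 5. A count of 0 allows up to 3 counts, which is 0.154 to 0.231 CPM in these libraries. Only WT 2, at 0.536 CPM, lay above that limit, so a difference in Alk was not detectable at this depth. These 3 genes did not pass the filter on low counts, which asked for about 0.724 CPM in at least 5 libraries, and were not tested.

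Compared per kilobase of exon, the 6 genes fell into a higher group of Mdk, Ptprz1 and Ptn and a low group of Nrcam, Cntn1 and Alk. Mdk was highest, at 39.1 ± 4.88 CPM per kb in Het and 72.0 ± 15.2 CPM per kb in WT. Ptprz1 followed in Het at 7.12 ± 0.70 CPM per kb and Ptn at 7.09 ± 2.13 CPM per kb, and these neighbours did not differ beyond their spread. In WT the order of these neighbours was the reverse, with 3.17 ± 0.47 CPM per kb for Ptprz1 and 5.17 ± 1.10 CPM per kb for Ptn, and their ranges, 2.73 to 3.93 and 4.32 to 6.94 CPM per kb, did not overlap. Nrcam was at 0.043 ± 0.011 and Cntn1 at 0.035 ± 0.037 CPM per kb in Het, against 0.068 ± 0.047 and 0.011 ± 0.014 CPM per kb in WT. Alk was at 0.0049 ± 0.0082 CPM per kb in Het, the lowest there, and 0.018 ± 0.030 CPM per kb in WT, where Cntn1 was lowest. Neighbours among these 3 overlapped in both groups.

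Ratios within a library combine values that were known when the genes were chosen and are given as a description. The level of Ptn per kilobase divided by that of Mdk was 0.143 to 0.232 in Het, with a median of 0.165, and 0.0560 to 0.121 in WT, with a median of 0.0601. For Ptprz1 over Mdk the ratio was 0.142 to 0.244 in Het (median 0.178) and 0.0295 to 0.0685 in WT (median 0.0424). Neither of these ratios overlapped between the groups, which for Ptprz1 over Mdk follows from the separate ranges of both genes. For Ptprz1 over Ptn the groups overlapped, at 0.614 to 1.41 in Het (median 1.19) and 0.491 to 0.757 in WT (median 0.633). Per kilobase, Mdk was the most abundant of the 3 in each of the 11 libraries.

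**Figure D2:**
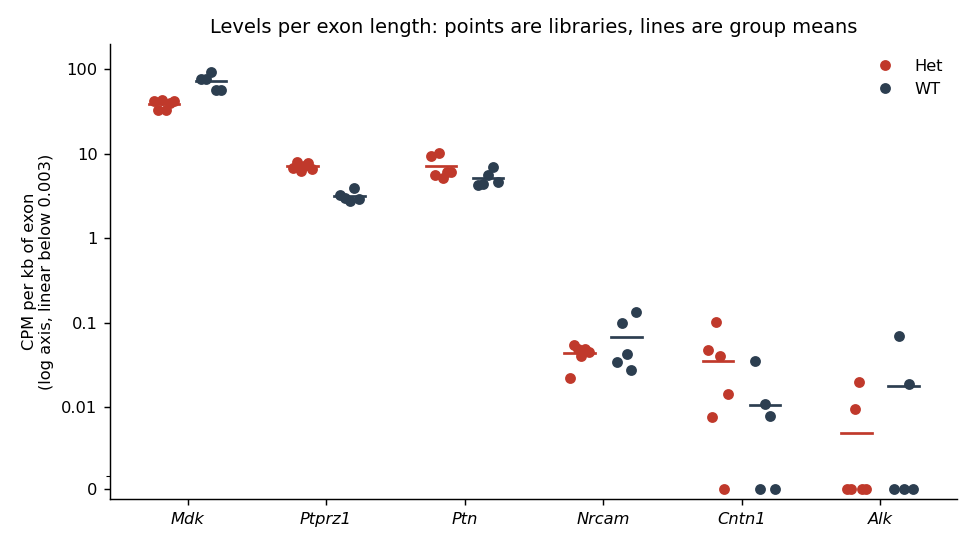
CPM per kilobase of exon for the 6 genes on a log axis that is linear below 0.003; points are libraries, lines are means, and Het stands left of WT. Mdk lies above Ptprz1 and Ptn in each group, and Nrcam, Cntn1 and Alk lie below 0.2 CPM per kb.

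By edgeR's quasi-likelihood test over 14757 genes, 742 passed an adjusted p of 0.05, which is 5.03 percent (2.65 percent higher and 2.38 percent lower in Het). Of the 6 members, 3 were tested, and of these Ptprz1 was past the threshold as higher in Het, Mdk as lower, and Ptn was not past it. The same 2 genes did not overlap between the groups, as was the case for 4.61 percent of the genes tested. Because these results were known when the genes were chosen, nothing is read from these counts. With the sex score as a covariate, where 0.84 percent of the genes passed, Ptprz1 and Mdk were past the threshold. In the Xist-positive libraries, where 0.23 percent passed, Ptprz1 was past it and Mdk was not.

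**Figure D3:**
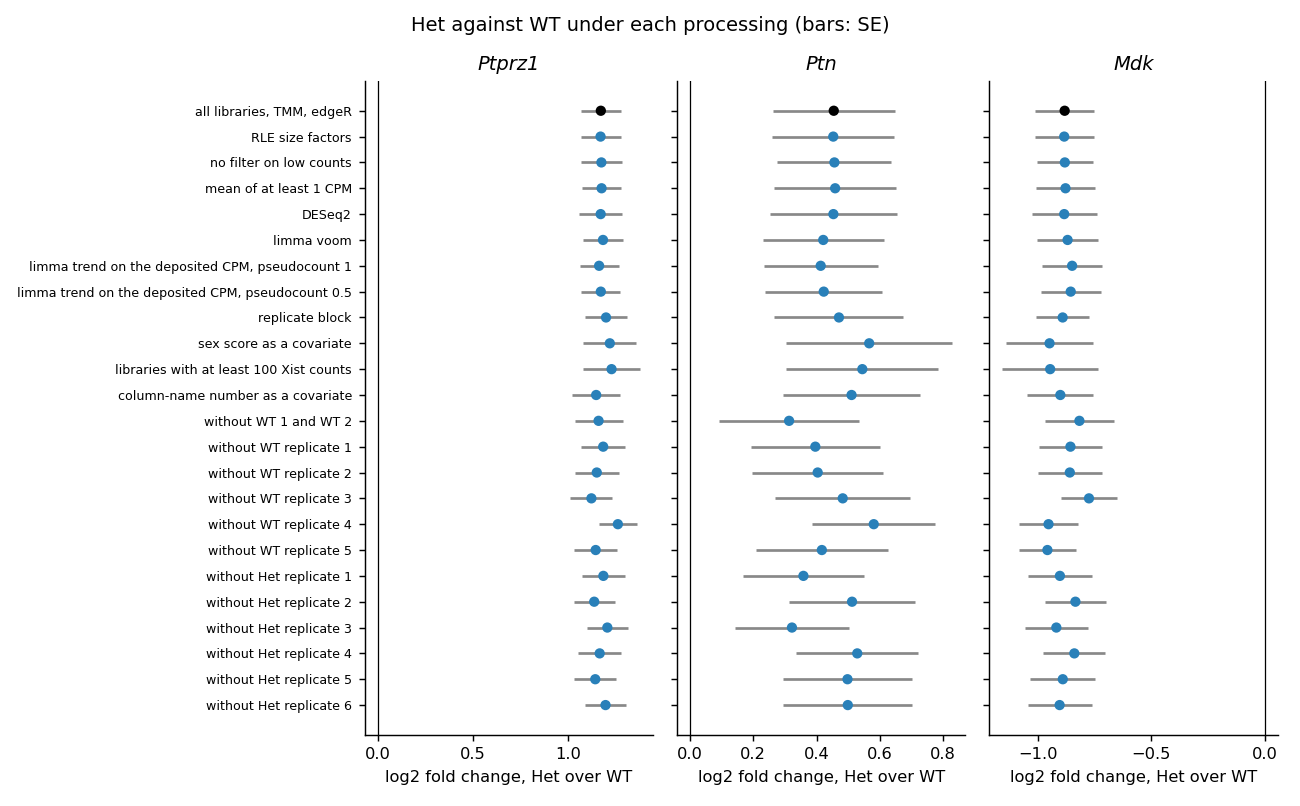
Log2 fold change of Het over WT for Ptprz1, Ptn and Mdk in the fit of all libraries (black) and under each alternative (blue), with bars of 1 SE; each panel has its own x axis. Values run from 1.12 to 1.26 for Ptprz1, 0.31 to 0.58 for Ptn and -0.96 to -0.78 for Mdk.

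Genes around Ptprz1 that were not used to choose the members were read from 7 lists with 95 genes, of which 73 passed the filter. Of these, 3 rose, 1 fell and 69 did not pass an adjusted p of 0.05, so 5.48 percent passed beside 5.03 percent of all genes tested. Their median log2 fold change was 0.034, and that of all genes tested was -0.0046. In the Xist-positive libraries 1 of the 73, Tnc, passed, and the same gene alone passed with the sex score.

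Among matrix ligands and relatives of phosphacan, 2 of 4 genes tested rose. Tnc, which encodes tenascin C, a matrix glycoprotein that phosphacan binds, was at 111.3, 198.9, 133.2, 182.3, 165.1 and 146.1 CPM in Het 1 to 6, against 41.7, 55.3, 52.1, 63.6 and 53.7 CPM in WT 1 to 5. The groups did not overlap. The log2 fold change was 1.55 ± 0.14 (SE, adjusted p = 1.53e-05 by edgeR). It also passed in the Xist-positive libraries (adjusted p = 0.0152) and with the sex score (adjusted p = 0.00132). Tnc was already known from these libraries when the list was written, so its rise is not independent evidence about the list.

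Cspg4, which encodes the chondroitin sulfate proteoglycan NG2 of pericytes and smooth muscle, was at 222.1 ± 17.4 CPM in Het and 179.7 ± 11.1 CPM in WT, with no overlap (195.2 to 243.5 CPM in Het and 166.1 to 192.0 CPM in WT). It rose by 0.31 ± 0.08 (SE, adjusted p = 0.0330 by edgeR). Leaving out any single library other than WT 5, Het 1 or Het 3 ended the call (adjusted p up to 0.0855, without WT 3), as did the sex score (adjusted p = 0.264). For Vcan, the large proteoglycan versican and the most abundant gene of the list that did not pass, the log2 fold change was -0.12 ± 0.11 (adjusted p = 0.618). It was -0.07 without Het 2, -0.06 without Het 3, -0.31 when the sex score was added and -0.30 in Xist-positive libraries. For Ncan, which encodes the brain proteoglycan neurocan, it was 0.51 ± 0.20 (adjusted p = 0.174), 0.28 with the column-name number and 0.66 in Xist-positive libraries. Leaving out single libraries gave Ncan an adjusted p of 0.0183 to 0.323 by edgeR, and 10 of these fits did not pass. Tnr, Bcan and Cspg5, whose proteins belong to the brain matrix, had at most 8 counts in a library.

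Of the receptors and co-receptors described for pleiotrophin and midkine, 1 of 15 tested rose and none fell, with a median log2 fold change of 0.201. Itga4, an integrin subunit that binds midkine, was at 32.3, 33.1, 30.2, 32.5, 36.1 and 38.4 CPM in Het 1 to 6, against 29.3, 27.9, 21.6, 25.9 and 23.6 CPM in WT 1 to 5. It rose by 0.40 ± 0.11 (SE, adjusted p = 0.0426 by edgeR). Among the fits that left out a single library, this call held without WT 1 or Het 3 and was lost without each of the other 9 libraries, up to an adjusted p of 0.109 without WT 3. Including the sex score gave an adjusted p of 0.407. Sdc4, a heparan sulfate proteoglycan of the cell surface, was the most abundant receptor that did not pass, at 2063 ± 179 CPM in Het and 1652 ± 440 CPM in WT (log2 fold change 0.32 ± 0.15, adjusted p = 0.242, and 0.20 without WT 1). Sdc3, the syndecan known as a pleiotrophin receptor on neurons, differed by 0.57 ± 0.20 on the log2 scale (adjusted p = 0.126), and Lrp1, an endocytic receptor that binds midkine, by -0.01 ± 0.07 (adjusted p = 0.982, and 0.01 without both WT 1 and WT 2). In the family of Alk, the related kinase Ltk (-0.67 ± 0.41, adjusted p = 0.402, and -0.37 without both WT 1 and WT 2) and the ligand Alkal2 (-0.69 ± 0.54, adjusted p = 0.543, and -1.78 with the sex score) did not pass, and the ligand Alkal1 had 0 counts in every library, which allows up to 3 counts or 0.154 to 0.231 CPM.

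None of 15 other receptor-type tyrosine phosphatases passed, with a median log2 fold change of 0.113. Ptprg, the closest relative of Ptprz1, was at 7.85 CPM in Het and 5.54 CPM in WT on average (log2 fold change 0.51 ± 0.20, adjusted p = 0.163). Ptprs, a phosphatase that also binds proteoglycan chains, was the most abundant at 199.6 ± 45.0 CPM in Het and 226.4 ± 80.8 CPM in WT (-0.18 ± 0.21, adjusted p = 0.707), and its log2 fold change turned to 0.013 without WT 1 and 0.22 without both WT 1 and WT 2. The lowest adjusted p of the list, 0.0650, was that of Ptprn, a protein of secretory granules with at most 42 counts in a library (1.44 ± 0.43). By DESeq2 the adjusted p of Ptprn was 0.0234.

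Contactins and their relatives were mostly scarce. Of 13 genes, 6 were tested and none passed, with a median log2 fold change of -0.366. The exception in abundance was Ncam1, which encodes the neural cell adhesion molecule, at 4031 ± 411 CPM in Het and 5328 ± 1367 CPM in WT. Its log2 fold change was -0.40 ± 0.14 (adjusted p = 0.110 by edgeR), and it passed without WT 4 (adjusted p = 0.0362). Without both WT 1 and WT 2 it was -0.12 ± 0.10 (adjusted p = 0.589). The paranodal partner of contactin 1, Cntnap1, was at 2.00 CPM in Het and 2.67 CPM in WT on average (-0.41 ± 0.33, adjusted p = 0.549).

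Enzymes that build and sulfate chondroitin sulfate chains, to which the ligands bind, showed no call. None of 20 tested passed, and their median log2 fold change was -0.027. For the chain-extending enzyme Chsy1 the log2 fold change was -0.05 ± 0.18 (adjusted p = 0.935), and it turned to 0.34 ± 0.13 without both WT 1 and WT 2. For the sulfotransferase Chst12, the most abundant of the list, it was 0.21 ± 0.11 (adjusted p = 0.343), with 0.13 when WT 5 was left out and 0.31 in the Xist-positive libraries. Chst15, the sulfotransferase that makes the doubly sulfated E unit, had the lowest adjusted p, 0.0951, at 4.35 CPM in Het and 2.46 CPM in WT on average (0.82 ± 0.27). By DESeq2 it passed, with an adjusted p of 0.0447.

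Of 11 substrates and scaffold partners of Ptprz1 tested, 1 fell and none rose. Add3, the gamma subunit of the cytoskeletal protein adducin, was at 38.2, 22.6, 30.8, 26.0, 31.4 and 33.6 CPM in Het 1 to 6, against 47.7, 47.0, 37.9, 54.8 and 74.1 CPM in WT 1 to 5. Het 1 overlapped WT 3 alone. The log2 fold change was -0.78 ± 0.16 (SE, adjusted p = 0.0106 by edgeR), and the call was kept when any single library was left out. With the sex score it did not pass (-0.78 ± 0.24, adjusted p = 0.212), nor with the column-name number as a covariate (adjusted p = 0.0837). Ctnnb1, which encodes beta-catenin (-0.06 ± 0.07, adjusted p = 0.737), and Add1, the most abundant of them (-0.16 ± 0.08, adjusted p = 0.317), did not pass. Git1, a scaffold protein, did not pass either (-0.11 ± 0.17, adjusted p = 0.784) and was at 0.11 without both WT 1 and WT 2. For Fyn, a Src family kinase, the value was -0.08 ± 0.18 (adjusted p = 0.864) and turned to 0.21 when the sex score was added.

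**Figure D4:**
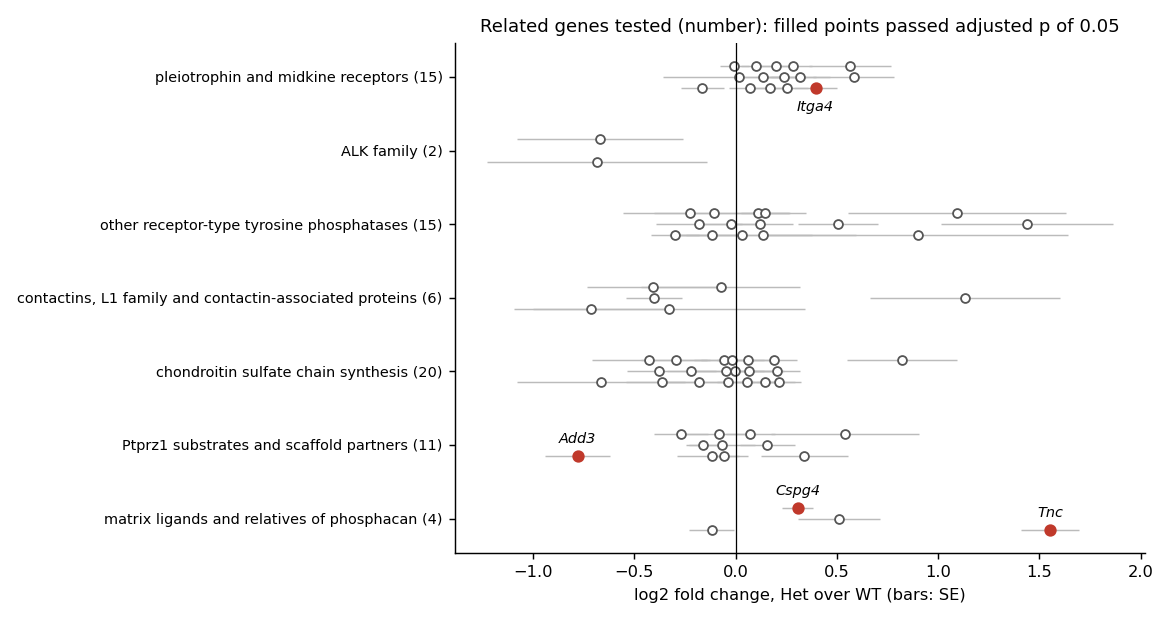
Log2 fold change of Het over WT with 1 SE for the 73 related genes tested, by list; filled points passed an adjusted p of 0.05. Tnc, Cspg4 and Itga4 lie to the right of 0, Add3 to the left, and the other 69 did not pass.

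Ptprz1 and its partners are best known from glia and neurons, so markers of those cells were read beside Ptprz1. The 10 markers of Schwann cells and glia summed to 18.8 to 37.6 CPM in Het and 27.7 to 39.1 CPM in WT, and none of 7 tested passed. The defining factor Sox10 was at 0.851 CPM in Het and 1.19 CPM in WT on average, and Foxd3 stayed under 1 CPM in every library. The 10 neuronal markers summed to 9.64 to 16.9 CPM in Het and 12.8 to 20.7 CPM in WT, none of 3 tested passed, and Elavl3, Snap25, Rbfox3 and Dbh stayed under 1 CPM in every library. In both lists the sums of Het and WT overlapped, while Ptprz1 was higher in every Het library. The 10 cartilage markers summed to 11.1 to 14.2 CPM in Het and 14.0 to 21.9 CPM in WT. Of 5 tested, 1, the transcription factor Sox9, fell (log2 fold change -1.16 ± 0.29, adjusted p = 0.0270 by edgeR). The others tested did not pass, at -0.72 to -0.20. Col2a1, Col9a2, Comp and Cnmd, which were not tested, had higher means in Het, of at most 0.549 CPM. Acan, which encodes aggrecan, was not in this list and was at 47.9 CPM in Het and 5.55 CPM in WT. The part of these cells in the Ptprz1 values was not tested.

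**Figure D5:**
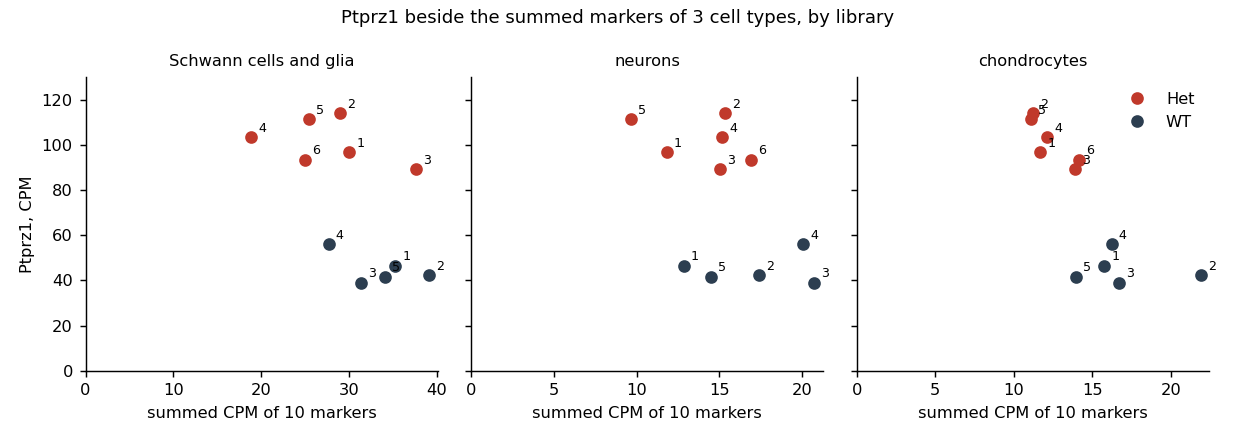
Ptprz1 level against the summed CPM of 10 markers each of Schwann cells and glia, neurons and cartilage, with 1 point per library numbered by replicate. Het points lie above WT points on the Ptprz1 axis and at overlapping or lower marker sums.

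The genes whose pattern over the 11 libraries was most like that of Ptprz1 were found by Pearson's r of log2(CPM + 1) among 12341 genes with a mean of at least 1 CPM. They were Acan, which encodes the proteoglycan aggrecan (r = 0.981), Ccn3, a matricellular protein (0.974), Slc22a3, an organic cation transporter (0.968), Nkx6-1, a homeodomain factor (0.968), and Tnc (0.962). The 11 libraries share the difference between the groups, and with the mean of each group removed r was 0.706 for Acan, 0.529 for Ccn3, 0.616 for Slc22a3, 0.521 for Nkx6-1 and 0.539 for Tnc. Acan was at 47.9 ± 12.5 CPM in Het and 5.55 ± 2.46 CPM in WT, and Nkx6-1 at 3.91 ± 0.50 CPM in Het and 1.17 ± 0.31 CPM in WT.

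The same measure was taken for the ligands after their values were seen. Nearest to Ptn were C1ra and C1s1, subunits of the complement component that starts the classical pathway (r = 0.924 and 0.895), Smoc2, a matricellular protein (0.912), Fbxl20, an F-box protein (0.907), and Spata6l (0.898). With group means removed these values were 0.847 to 0.904. Nearest to Mdk were Fundc1, a mitochondrial outer membrane protein (0.961), Enpp3, an ectonucleotidase (0.956), Dnajc19, a mitochondrial import protein (0.949), Matn2, a matrix protein of the matrilin family (0.949), and Ttll5, a tubulin glutamylase (0.943), with values of 0.726 to 0.896 after removal. Among the members, r with group means removed was -0.626 for Ptprz1 and Mdk, -0.120 for Ptprz1 and Ptn and 0.233 for Ptn and Mdk over the 11 libraries. These values are descriptions, since libraries share depth and cell makeup.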

How the data were processed

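The deposited count table holds whole-number counts made by the authors for 48733 rows, of which 48709 are mouse genes; 24 other rows, at most 8.06e-05 percent of a library, were left out. The deposited normalized signal, named as TMM-scaled CPM, sums to 966683 to 1026471 per library and served for symbols and an alternative. Per the labels' protocols, libraries were unstranded Nextera XT, single reads on an Illumina NextSeq, pooled over separate runs. Per the submitters' processing notes, STAR 2.5.2a, DESeq2, edgeR, limma and GRCm38 were used, without the role of each; which program counted reads is not given in the sources used here.

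Genes were filtered first: the filter on low counts was filterByExpr with a minimum count of 10 and total of 15, and scaling was by TMM. Het was tested against WT over all 14757 genes with the quasi-likelihood test of edgeR 4.0.16 with robust dispersions in R 4.3.3, two-sided, with Benjamini-Hochberg adjustment and a threshold of 0.05. An SE is the absolute log2 fold change divided by the square root of the F statistic. For the sex score, log2(CPM + 1) of Xist was subtracted from the mean over the Y-linked genes Uty, Kdm5d, Eif2s3y and Ddx3y; Xist-positive libraries have at least 100 Xist counts. Levels per kilobase use merged GENCODE M21 exons. The test was also run on simulated counts that had a single common dispersion for all genes and no sex difference. That run does not show how the test behaves on these libraries.

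The members, the lists of related and marker genes and the tests were chosen with earlier results of these data known. Named were all members, in each list the 2 smallest adjusted p per direction among calls and the most abundant gene that did not pass, and the 5 genes most like Ptprz1. Named after their values were seen were Ncan, Sdc3, Lrp1, Alkal2, Ptprg, Ptprn, Cntnap1, Chsy1, Chst15, Ctnnb1, Git1, Fyn, the genes at or near 0 counts, the marker genes and the genes most like Ptn and Mdk. Lists of T cells, epithelium, skeletal muscle and heart muscle markers summed to at most 38.2 CPM in any library. Alternatives were RLE scaling, other filters, DESeq2 1.42.0, limma 3.58.1 (voom, and trend on the deposited CPM with pseudocounts of 1 and 0.5), a replicate block, the covariates above, libraries left out, a threshold of 0.1 and, added after seeing the data, member means of the deposited CPM.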

Additional observations from a re-analysis of the deposited data

Results flagged for a closer look

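In 36 groups of values checked, of the members, the named related genes and Tgfbr2, 3 had a library that stood far from the others of its group; chance alone gives about 1 in 20. Alk was at 0.536 CPM in WT 2, 8 counts, while the next WT library had 0.147 CPM. The rate of 1 in 20 cannot be assumed for Alk in WT, where 3 libraries had 0 counts. Chst12 was at 70.4 CPM in Het 2, while the other Het libraries had 52.5 to 58.6 CPM. Tgfbr2 was at 48.8 CPM in WT 5, while the other WT libraries had 38.3 to 41.0 CPM.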

How the results depend on the processing

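Ptprz1, Ptn and Mdk kept their direction under all 23 alternatives, each moving by less than the spread between replicates; values were 1.12 to 1.26, 0.31 to 0.58 and -0.96 to -0.78. Of the members 2 were past the threshold under all alternatives except the Xist-positive libraries alone, where 1 was; leaving out each library in turn gave 2 to 2. The 4 related calls became 2 without the filter, 1 with the sex score, in the Xist-positive libraries or with the column-name number, 6 with DESeq2 or at a threshold of 0.1, and 2 to 6 when each library was left out; DESeq2 and the threshold of 0.1 thus gave 1.5 times as many. The 742 calls over all genes became 1295 with DESeq2, 124 with the sex score, 34 in the Xist-positive libraries, 415 with the column-name number, 1290 at a threshold of 0.1, 443 without both WT 1 and WT 2 and 465 to 854 when each library was left out. With a replicate block, 329 genes, 2 related genes and 2 members passed; Het 6 has no WT partner in it. Same-numbered libraries did not deviate together (r from -0.28 to 0.064 over 5 numbers), and 1 of 5 WT libraries correlated best with its own number, so the samples share only a number. Depth limits Nrcam, Cntn1 and Alk.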

Other observations

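Tgfbr2 and Ptn had the same 2 highest Het libraries. Tgfbr2 was at 47.1 and 51.4 CPM in Het 1 and Het 3 and 30.9 to 35.7 CPM in the other 4 Het libraries, where Ptn was at 32.2 and 35.0 CPM and 17.8 to 20.8 CPM. Cntn1 had its highest counts in the same libraries, 6 in Het 1 and 13 in Het 3. Lum, which encodes the small proteoglycan lumican, was at 424.6 and 443.5 CPM in Het 1 and Het 3 and 273.5 to 338.2 CPM in the other Het libraries. In WT, Tgfbr2 and Ptn did not share their highest library. Tgfbr2 was lowest in WT 4, at 38.3 CPM, where Ptn was highest, at 23.8 CPM. It was highest in WT 5, at 48.8 CPM, where Ptn was at 15.8 CPM. These values were noticed after the data were seen.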
